A study of Homo sapiens with 6 samples.

Results

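Keratin genes were compared between HuCCT1/CD90+ and HuCCT1/CD90- cells. The members were all genes of the expression table whose symbol is KRT followed by a number and, for the KRT6 and KRT33 copies, a letter. This gave 55 of 20811 genes, 29 of type I and 26 of type II, without keratin-associated proteins or pseudogenes. HuCCT1 cells are a human line from intrahepatic cholangiocarcinoma, a cancer of the bile ducts. HuCCT1/CD90+ cells were transduced with a human THY1-CMV-GFP lentivirus, THY1 being the gene of the surface glycoprotein CD90, and HuCCT1/CD90- cells with the Lenti-CMV-GFP-2A-Puro-Blank virus, so that a GFP vector was shared by both. From each line, 3 libraries of total RNA were read with an Ion AmpliSeq panel, which amplifies 1 short amplicon for each gene, and values are reads scaled to an equal library total (RPM). Each group is 1 transduced line, and the line cannot be told apart from the vector it carries. The labels do not say whether the libraries came from separate cultures, so the p-values measure the spread between libraries, which may be technical.

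Keratins are the intermediate filament proteins of epithelial cells. An acidic type I chain pairs with a basic or neutral type II chain, and the pairs assemble into filaments that run from the nucleus to desmosomes and hemidesmosomes and give the cell mechanical strength. The pair that is made depends on the epithelium: bile duct cells are known for KRT7 and KRT19 on top of KRT8 and KRT18, basal cells of stratified epithelia for KRT5 with KRT14 or KRT15, wounded skin for KRT6, KRT16 and KRT17, and hair and nail for a separate set of hard keratins. Apart from KRT18, which lies among the type II genes, type I genes form one cluster on chromosome 17 and type II genes another on chromosome 12.

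The libraries held between 8587634 and 10551516 reads on genes. THY1 had 0, 1 and 0 reads in HuCCT1/CD90- and 435, 445 and 680 reads in HuCCT1/CD90+, as the labels state. KRT7 and KRT19 were read at 3042 RPM or more in all 6 libraries, and the biliary marker EPCAM had means of 28.6 ± 3.6 and 363 ± 50.5 RPM (SD, n = 3) in HuCCT1/CD90- and HuCCT1/CD90+. The biliary marker SOX9 had means of 66.2 ± 28.2 and 120 ± 4.66 RPM, with lines that did not overlap (limma adjusted p = 0.16). A call needed a limma p, adjusted over all 20811 genes, of at most 0.05 and a change of at least 1.5-fold on the log2(RPM + 1) scale. Of 13 markers of hepatocytes, fibroblasts, leukocytes and endothelial cells, 1 was called higher (CD68) and 5 lower (APOA1, COL1A2, DCN, LUM and PDGFRB) in HuCCT1/CD90+, which is 7.69% higher and 38.5% lower, against 7.59% and 7.49% of all genes. COL1A2 and DCN were lost when the replicate numbers entered as a block (limma adjusted p = 0.090 and 0.086). Their RPM summed to 92.2 to 120 for HuCCT1/CD90- and to 105 to 126 for HuCCT1/CD90+, and without CD68, left out after the values were seen, to 45.8 to 68.9 and 20.9 to 25.9. ALB, TF, TTR and PTPRC had at most 3 reads in every library. The part of these shifts in the keratin values was not tested. In bulk RNA, fewer cells with a transcript and less of it per cell cannot be told apart.

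Of the 55 keratins, 4 were higher in HuCCT1/CD90+ (KRT15, KRT18, KRT33B and KRT34), 3 were lower (KRT14, KRT17 and KRT86) and 48 were not called. The 4 higher genes are 7.27% of the keratins, against 7.59% of all genes called higher, and the 3 lower genes are 5.45%, against 7.49% of all genes called lower. These shares include the keratins with few or no reads. When only genes averaging 1 RPM or more were tested, 8 of 16 keratins were called (50%, against 33.3% of all such genes), and with 10 RPM or more 5 of 9 (55.6%, against 29.3%). Opposite calls within 1 role group occurred among the basal keratins (1 higher, 1 lower) and the hair shaft keratins (2 higher, 1 lower). With no minimum fold, KRT8, KRT19 and KRT80 were added, which gave 7 higher keratins (12.7%, against 9.41% of all genes) and the same 3 lower ones (5.45%, against 9.52%). With the unadjusted p of at most 0.05 and 1.5-fold change of the study's methods, 7 were higher (12.7%, against 10.1% of all genes; KRT6A, KRT6B and KRT20 joined the first 4) and 4 were lower (7.27%, against 9.98%; KRT9 joined the 3). The lines did not overlap for 16 of 55 keratins, a share that stands beside 35.0% of all genes. The median log2 fold change was 0 for the keratins and 0 for all genes, since many had no reads: 15 keratins had 0 reads in all 6 libraries, 15 more never had more than 3 reads in a library, and 25 had more than 3 reads in at least 1 library.

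**Figure D1:**
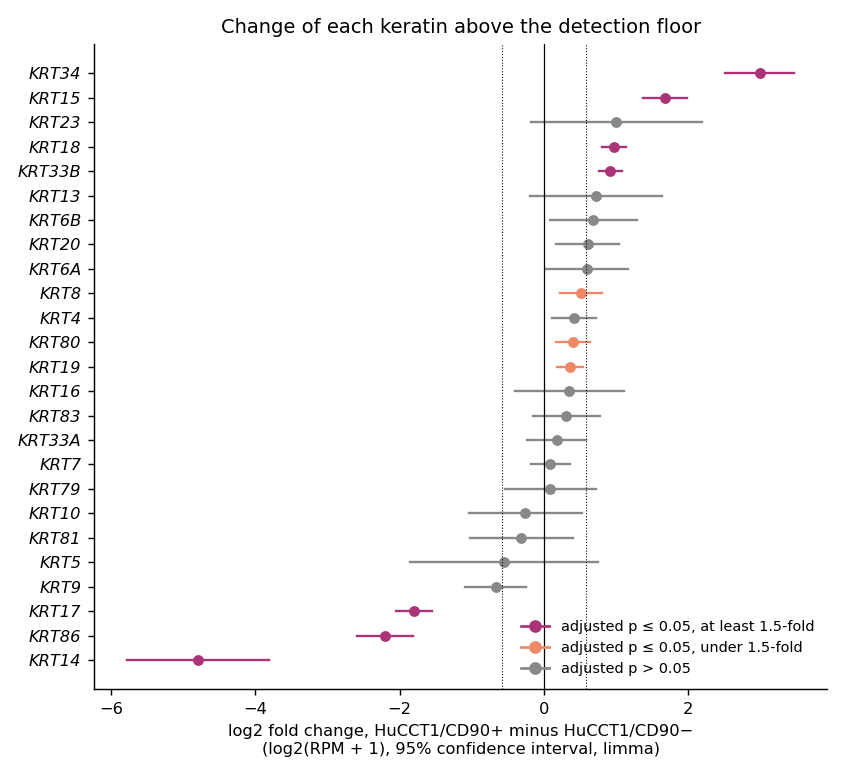
Log2 fold change of the keratins on the log2(RPM + 1) scale, HuCCT1/CD90+ minus HuCCT1/CD90-, with 95% confidence intervals from limma, for the keratins with more than 3 reads in at least 1 library, coloured by call. KRT34 has the largest rise and KRT14 the largest fall among the called genes.

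The keratins of simple epithelia, which line the bile duct, held 90.2% to 91.4% of keratin reads in HuCCT1/CD90- and 92.5% to 92.7% in HuCCT1/CD90+, and 1 of their 6 genes was called higher and none lower (16.7% called, against 15.1% of all genes). KRT18, the type I partner of KRT8, had 616, 676 and 642 RPM in HuCCT1/CD90- and 1350, 1196 and 1250 RPM in HuCCT1/CD90+. Each HuCCT1/CD90+ library was above each HuCCT1/CD90- library. The means were 645 ± 30.1 and 1266 ± 78.2 RPM (SD, n = 3), a 1.96-fold higher level, with a log2 fold change of 0.97 (SE 0.06) and a limma adjusted p of 0.0018. Of the 31-base words of KRT18 transcripts, 53.3% also occur in other genes, most of all in the pseudogene KRT18P11 (21.3%), and amplicon positions were not used here, so its value is uncertain where reads of copies could be counted with it. KRT8, its type II partner, had 1362, 1089 and 1068 RPM in HuCCT1/CD90- and 1682, 1681 and 1637 RPM in HuCCT1/CD90+. The ranges did not overlap, and the means of 1173 ± 164 and 1667 ± 26.1 RPM differed 1.42-fold, under the minimum fold (limma adjusted p = 0.039, and 0.092 when the replicate numbers entered as a block). KRT19, the smallest keratin and a biliary marker, had 3462, 3181 and 3042 RPM in HuCCT1/CD90- and 3900, 4248 and 4291 RPM in HuCCT1/CD90+. These ranges too were apart, with a 1.28-fold difference between the means of 3228 ± 214 and 4146 ± 214 RPM (limma adjusted p = 0.029, 0.14 with the block). KRT7, the type II keratin of ducts and glands, had 3796, 3150 and 3354 RPM in HuCCT1/CD90- and 3472, 3468 and 4027 RPM in HuCCT1/CD90+. The lines overlapped for KRT7, and its log2 fold change of 0.09 had a 95% confidence interval of -0.18 to 0.36 (limma adjusted p = 0.65).

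The other simple keratins were read at a few RPM or less. KRT20, a keratin of intestinal and urothelial cells, had 1 read in each HuCCT1/CD90- library and 9, 7 and 3 reads in HuCCT1/CD90+. The ratio of depth-scaled reads was 7.05, with a 95% counting interval of 2.08 to 37.2, and the gene was not called (limma adjusted p = 0.074). It passed without HuCCT1/CD90+ replicate 3, the library with 3 reads. KRT23, a type I keratin of secretory and simple epithelia, had 1.04, 1.82 and 0.194 RPM in HuCCT1/CD90- and 2.04, 4.77 and 2.17 RPM in HuCCT1/CD90+. The lowest HuCCT1/CD90+ value was above the highest HuCCT1/CD90- value, but the libraries of each line were far apart. The means of 1.02 ± 0.813 and 2.99 ± 1.54 RPM differed 2.94-fold, with a log2 fold change of 1.01 (95% confidence interval -0.18 to 2.19) and a limma adjusted p of 0.23, while DESeq2 gave 0.033 and edgeR 0.018. The number of simple keratins called rose from 1 to 2 without HuCCT1/CD90- replicate 1, where KRT8 was added, and without HuCCT1/CD90+ replicate 3.

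**Figure D2:**
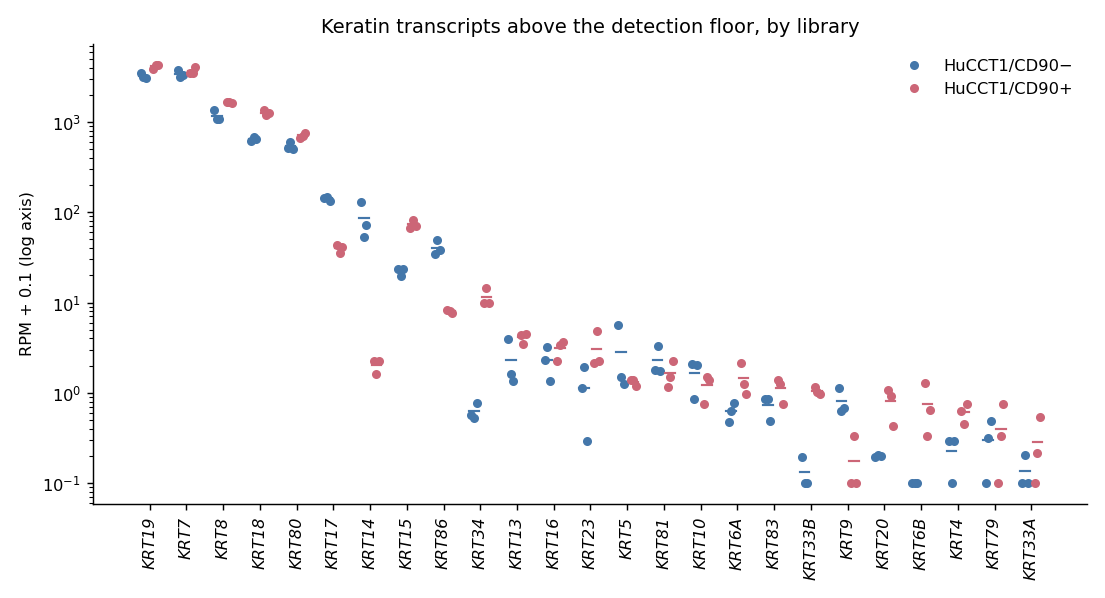
RPM + 0.1 in each library (points, log axis) for the 25 keratins with more than 3 reads in at least 1 library, coloured by line, with short bars at the mean of each line. The points of the lines are apart for KRT14, KRT15, KRT17, KRT18, KRT34 and KRT86, and they overlap for KRT7.

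Among the 3 keratins of basal cells, KRT14 fell and KRT15 rose, while KRT5 was not called. These 2 calls are 66.7% of the group, against 15.1% of all genes and 33.3% of genes averaging 1 RPM or more. KRT14, the type I partner of KRT5 in the basal layer, had 131, 53.7 and 72.3 RPM in HuCCT1/CD90- and 2.14, 1.51 and 2.17 RPM in HuCCT1/CD90+. The HuCCT1/CD90+ values were all below the lowest HuCCT1/CD90- value, and HuCCT1/CD90- replicate 1 stood above the other two. From 85.6 ± 40.3 to 1.94 ± 0.371 RPM (SD, n = 3), the level was 44.1-fold lower in HuCCT1/CD90+, with a log2 fold change of -4.79 (SE 0.37) and a limma adjusted p of 0.0030. KRT14 has the same limit as KRT18, with 46.1% of its 31-base words in other genes (23.0% in KRT16P6), while KRT15 shares 1.7%. KRT15, which basal cells and hair follicle stem cells make, had 23.6, 19.4 and 23.4 RPM in HuCCT1/CD90- and 67.0, 81.2 and 71.2 RPM in HuCCT1/CD90+. Here the HuCCT1/CD90+ libraries were the higher ones without overlap. The means of 22.1 ± 2.38 and 73.1 ± 7.27 RPM differed 3.31-fold, with a log2 fold change of 1.68 (SE 0.11) and a limma adjusted p of 0.0021. The RPM ratio of KRT14 to KRT15 was therefore 2.77 to 5.55 in HuCCT1/CD90- and 0.0187 to 0.0320 in HuCCT1/CD90+. KRT5, the type II partner of both, had 5.59, 1.39 and 1.16 RPM in HuCCT1/CD90- and 1.29, 1.28 and 1.08 RPM in HuCCT1/CD90+. Only HuCCT1/CD90- replicate 1 stood apart for KRT5, and the log2 fold change of -0.55 (2.23-fold lower by mean RPM, limma adjusted p = 0.57) became -0.04 without it. In that library KRT14 was at 2.08 times, KRT5 at 4.38 times and the mucosal keratin KRT13 at 2.82 times the mean of the other HuCCT1/CD90- libraries. Without it the log2 fold change of KRT14 was -4.44, the smallest fall with any 1 library left out.

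KRT17 was the 1 called gene among the 5 keratins of stress and regeneration, and it was lower in HuCCT1/CD90+ (20% called, against 15.1% of all genes). It is made in hair follicles, in activated keratinocytes and in many carcinomas. It had 144, 147 and 135 RPM in HuCCT1/CD90- and 43.6, 35.3 and 41.6 RPM in HuCCT1/CD90+. The libraries of each line lay close together, and the lines were far apart. The means of 142 ± 6.56 and 40.2 ± 4.35 RPM (SD, n = 3) gave a 3.53-fold lower level, a log2 fold change of -1.80 (SE 0.09) and a limma adjusted p of 0.0012. Of its 31-base words, 34.6% occur in other genes (21.5% in KRT17P1), so its value carries the same uncertainty. KRT16, a type I gene that skin induces together with KRT6 and KRT17, had means of 2.18 ± 0.921 and 3.00 ± 0.754 RPM, with overlapping lines. KRT6A had 0.379, 0.535 and 0.679 RPM in HuCCT1/CD90- and 2.04, 1.16 and 0.868 RPM in HuCCT1/CD90+ (limma adjusted p = 0.14). KRT6B had 0 reads in HuCCT1/CD90- and 11, 2 and 5 reads in HuCCT1/CD90+, a level at least 2.18-fold higher when HuCCT1/CD90- was set at 3 reads per library (limma adjusted p = 0.12, DESeq2 adjusted p = 0.0063). Without HuCCT1/CD90+ replicate 1, which had the 11 reads, this bound was 1.3-fold. So KRT17 fell, while for KRT6A and KRT6B the HuCCT1/CD90+ values lay above those of HuCCT1/CD90- without passing the main test. KRT6A, KRT6B and KRT6C are near-identical copies, and 52.7%, 58.3% and 61.7% of the 31-base words of their transcripts occur in other genes, so their values are uncertain.

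Of the 17 keratins of the hair shaft, the hard keratins of hair and nail, 2 were higher (KRT33B and KRT34), 1 was lower (KRT86) and 11 never had more than 3 reads in a library. The shares were 11.8% higher and 5.88% lower, against 7.59% and 7.49% of all genes. KRT34 and KRT33B are type I genes that lie side by side on the minus strand of chromosome 17, between KRT33A and KRT31. Their promoters are shown because these neighbours in one gene row had different levels. The 4 sequences run from 250 bases before to 50 after the RefSeq start on GRCh38.p14, at chr17:41382257-41382556 for KRT34, chr17:41369764-41370063 for KRT33B, chr17:41350779-41351078 for KRT33A and chr17:41397559-41397858 for KRT31. They are written 5′ to 3′ on the gene's strand, and capitals mark the letters TATAAA, the core of a TATA box.
KRT34: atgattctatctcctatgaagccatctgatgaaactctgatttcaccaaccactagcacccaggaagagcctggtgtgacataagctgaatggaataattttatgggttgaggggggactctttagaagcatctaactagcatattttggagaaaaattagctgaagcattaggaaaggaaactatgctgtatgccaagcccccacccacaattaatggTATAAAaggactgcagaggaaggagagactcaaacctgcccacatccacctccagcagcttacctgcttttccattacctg
KRT33B: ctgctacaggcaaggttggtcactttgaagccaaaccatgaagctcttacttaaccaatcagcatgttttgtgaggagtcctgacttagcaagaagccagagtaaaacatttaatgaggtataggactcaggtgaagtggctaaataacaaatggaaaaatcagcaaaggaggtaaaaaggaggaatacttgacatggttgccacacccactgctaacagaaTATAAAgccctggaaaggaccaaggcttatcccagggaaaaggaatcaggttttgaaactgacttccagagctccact
KRT33A: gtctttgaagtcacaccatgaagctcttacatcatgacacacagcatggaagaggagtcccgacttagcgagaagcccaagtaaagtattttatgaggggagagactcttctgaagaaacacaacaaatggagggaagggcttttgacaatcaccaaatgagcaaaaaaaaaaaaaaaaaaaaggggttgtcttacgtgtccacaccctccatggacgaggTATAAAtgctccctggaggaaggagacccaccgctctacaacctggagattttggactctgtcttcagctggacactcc
KRT31: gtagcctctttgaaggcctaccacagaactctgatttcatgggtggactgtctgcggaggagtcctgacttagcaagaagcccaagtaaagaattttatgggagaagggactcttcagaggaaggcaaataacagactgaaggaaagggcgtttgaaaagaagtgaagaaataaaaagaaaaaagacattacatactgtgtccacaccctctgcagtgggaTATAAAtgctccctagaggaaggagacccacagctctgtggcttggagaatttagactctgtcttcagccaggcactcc
In each promoter TATAAA occurs once and begins 28 to 31 bases before the start. On either strand it was found in 20 of the 34 keratin promoters matched by symbol (58.8%), against 11.5% of 35116 promoters of all genes. The 34 did not include KRT7, KRT14, KRT15, KRT17, KRT18, KRT19, KRT80 and KRT86. The GC box letters GGGCGG were found in 6 of the 34 (17.6%), against 45.0% of all promoters, and in none of these 4. Aligned to each other, with gaps left out, the promoters of KRT33A and KRT31 were identical at 78.1% of 288 aligned bases. The KRT34 promoter was identical to the others at 62.8% to 66.3% of 255 to 269 aligned bases. These letters describe the sequence and do not show that a factor binds there.

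KRT34 had 5, 4 and 7 reads in HuCCT1/CD90- and 92, 124 and 89 reads in HuCCT1/CD90+. All HuCCT1/CD90+ libraries were above all HuCCT1/CD90- libraries. The means of 0.527 ± 0.134 and 11.3 ± 2.70 RPM (SD, n = 3) differed 21.5-fold, with a log2 fold change of 2.99 (SE 0.18) and a limma adjusted p of 0.0017. KRT33B had 1, 0 and 0 reads in HuCCT1/CD90- and 10, 8 and 8 reads in HuCCT1/CD90+. On this low count the ratio of depth-scaled reads was 28.9, with a 95% counting interval of 4.76 to 1187, and the log2 fold change was 0.92 (limma adjusted p = 0.0019). The call was lost with an offset of 5 RPM or with only genes of at least 1 RPM on average, and edgeR's filter left the gene out. KRT33A had 0, 1 and 0 reads in HuCCT1/CD90- and 0, 1 and 4 reads in HuCCT1/CD90+, and KRT31 had 0 reads in HuCCT1/CD90- and 2 reads in all in HuCCT1/CD90+. The difference between lines in this gene row was therefore read in KRT34 and KRT33B, and at this depth none was detectable in KRT33A or KRT31. Of the 31-base words of the KRT34 transcripts, 12.6% also occur in KRT33B, and 28.2% of those of KRT33B occur in KRT33A, so that reads could be split among them.

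KRT86, a type II hair keratin, moved the other way. It had 34.1, 48.8 and 38.3 RPM in HuCCT1/CD90- and 8.26, 7.92 and 7.49 RPM in HuCCT1/CD90+. Its lines did not overlap, and the HuCCT1/CD90+ libraries were close to one another. From 40.4 ± 7.56 to 7.89 ± 0.385 RPM (SD, n = 3), the level was 5.12-fold lower, with a log2 fold change of -2.21 (SE 0.14) and a limma adjusted p of 0.0020. KRT81, its near copy, had 1.71, 3.21 and 1.65 RPM in HuCCT1/CD90- and 1.07, 1.40 and 2.17 RPM in HuCCT1/CD90+, which overlapped. KRT83, another copy, had means of 0.632 and 1.03 RPM (limma adjusted p = 0.33, 0.047 with the block). The 31-base words of KRT86 transcripts occur in KRT81 for 37.5%, and the gene overlaps KRT7 on the same strand and KRT81 on the opposite strand, so its value is uncertain where the amplicon could be read from a neighbour.

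None of the 14 keratins of stratified and cornified epithelia was called by limma, DESeq2 or edgeR, with 3 at an unadjusted limma p of at most 0.05. Of all genes tested, limma called 15.1%, DESeq2 24.9% and edgeR 34.8%, and 31.1% had such an unadjusted p. KRT80, a type II keratin of many epithelia, was the 1 of them read above a few RPM. It had 516, 594 and 498 RPM in HuCCT1/CD90- and 672, 693 and 762 RPM in HuCCT1/CD90+. The lines were apart, with means of 536 ± 51.1 and 709 ± 47.1 RPM (SD, n = 3), a 1.32-fold difference under the minimum fold (limma adjusted p = 0.046, 0.14 with the block). KRT13, a keratin of oral and oesophageal mucosa, had 3.89, 1.5 and 1.26 RPM in HuCCT1/CD90- and 4.29, 3.38 and 4.34 RPM in HuCCT1/CD90+. The lines overlapped through HuCCT1/CD90- replicate 1 (limma adjusted p = 0.26, and 0.023 without that library, where the list had 1 call). KRT9, the keratin of palm and sole skin, had 11, 5 and 6 reads in HuCCT1/CD90- and 0, 2 and 0 reads in HuCCT1/CD90+ (limma adjusted p = 0.053). KRT4, the mucosal partner of KRT13, had 4 reads in all in HuCCT1/CD90- and 14 in HuCCT1/CD90+ (limma adjusted p = 0.075, 0.027 with the block). KRT10, which marks keratinocytes that have left the basal layer, had means of 1.56 and 1.11 RPM with overlapping lines. KRT79, a keratin of hair follicles and sebaceous glands, reached 6 reads in 1 library, and the other 8 of the list never had more than 3 reads in a library.

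The 9 keratins of the inner root sheath and companion layer of the hair follicle were not detectable at this depth. Of them, 5 had 0 reads in all 6 libraries and none had more than 3 reads in any library. A count of 0 allows up to 3 reads, which is 0.284 to 0.349 RPM depending on the library. No member was called by limma, DESeq2 or edgeR, and none had an unadjusted limma p of at most 0.05. KRT222, a truncated keratin gene without a place in these groups, also had 0 reads throughout.

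By chain type, 6 of 29 type I keratins (20.7%) and 1 of 26 type II keratins (3.85%) were called, against 15.1% of all genes, and the difference between the types was not tested. The type I calls were 4 higher genes and 2 lower ones (KRT14 and KRT17), and KRT86 was the type II call. The type II count rose to 2 without HuCCT1/CD90- replicate 1, where KRT8 passed. The summed RPM of type I genes was 3920 to 4387 in HuCCT1/CD90- and 5384 to 5678 in HuCCT1/CD90+, and that of type II genes 4888 to 5716 and 5843 to 6440. Both sums were higher in HuCCT1/CD90+ without overlap, type I by 1.34-fold and type II by 1.17-fold. The ratio of type I to type II reads was 0.768 to 0.836 in HuCCT1/CD90- and 0.882 to 0.955 in HuCCT1/CD90+. Amplicons differ in efficiency, so such ratios are compared between libraries only and do not give the stoichiometry of the chains. Within the pairs, the ratio of KRT18 to KRT8 was 0.453 to 0.621 in HuCCT1/CD90- and 0.711 to 0.803 in HuCCT1/CD90+, and that of KRT19 to KRT7 was 0.907 to 1.01 and 1.07 to 1.22. Both ratios were higher in HuCCT1/CD90+ without overlap, so the type I chain took a larger part of each pair's reads there than in HuCCT1/CD90-.

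All keratins together took 0.888% to 1.01% of reads in HuCCT1/CD90- and 1.12% to 1.21% in HuCCT1/CD90+, with summed levels of 9321 ± 680 and 11598 ± 464 RPM (SD, n = 3). The sum was 1.24-fold higher in HuCCT1/CD90+, and every HuCCT1/CD90+ library was above every HuCCT1/CD90- library. Without KRT19, the keratin with the highest mean RPM over all 6 libraries (KRT7 had the higher mean in HuCCT1/CD90-), the sums were 6092 ± 477 and 7452 ± 332 RPM, a 1.22-fold difference. KRT7, KRT8, KRT18, KRT19 and KRT80 held 96.5% to 96.9% of keratin reads in HuCCT1/CD90- and 98.6% to 98.7% in HuCCT1/CD90+. Within the sum, the mean share of KRT7 was 36.8% in HuCCT1/CD90- and 31.5% in HuCCT1/CD90+, that of KRT18 was 6.95% and 10.9%, and that of KRT8 was 12.5% and 14.4%, all without overlap. The shares of KRT19 (34.7% and 35.7%) and KRT80 (5.78% and 6.11%) overlapped. The share of KRT17 was 1.53% and 0.347%, and the share of KRT14 was 0.902% and 0.0167%.

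**Figure D3:**
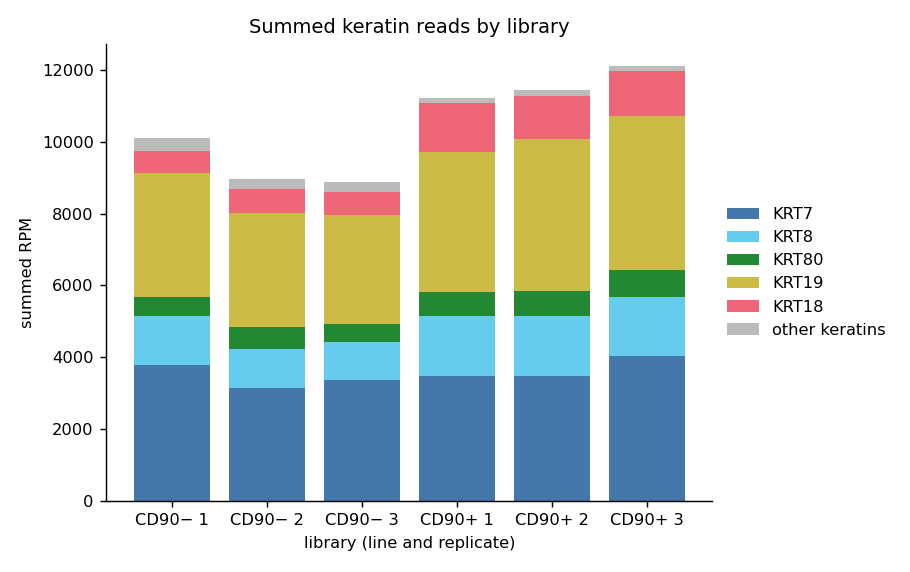
Summed keratin RPM of each library, stacked by gene, on an axis that starts at 0. The 3 HuCCT1/CD90+ libraries reach 11227 to 12118 RPM and the 3 HuCCT1/CD90- libraries 8883 to 10104 RPM, and KRT7 and KRT19 fill most of each bar.

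Along the genome, higher and lower keratins lay in the same clusters, with uncalled keratins between them. Positions are those of GENCODE release 29 on GRCh38. The chromosome 17 cluster holds 28 keratins between 40654665 and 41624842, and all of the called type I genes but KRT18 are in it. KRT15 (41513743 to 41522529), which rose, lies 1 gene before KRT19 and a few genes before KRT14 (41582279 to 41586921) and KRT17 (41619441 to 41624842), which fell. KRT33B (41363494 to 41369800) and KRT34 (41377650 to 41382403), which rose, are in the hair keratin row of the same cluster. The chromosome 12 cluster holds 27 keratins between 52168996 and 52952901, with KRT80, KRT7 and KRT86 (52249300 to 52309163) at one end and KRT8 and KRT18 (52948871 to 52952901) at the other. KRT86, which fell, overlaps KRT7, which was not called, and KRT18, which rose, overlaps KRT8 on the opposite strand. The 20 nearest genes outside the chromosome 17 cluster with a mean of at least 10 RPM had a median log2 fold change of -0.16 (range -1.52 to 1.01), beside -0.02 for 536 genes of that chromosome. The 20 around the chromosome 12 cluster had a median of -0.13 (range -0.54 to 0.89), beside 0.06 for 441 genes.

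**Figure D4:**
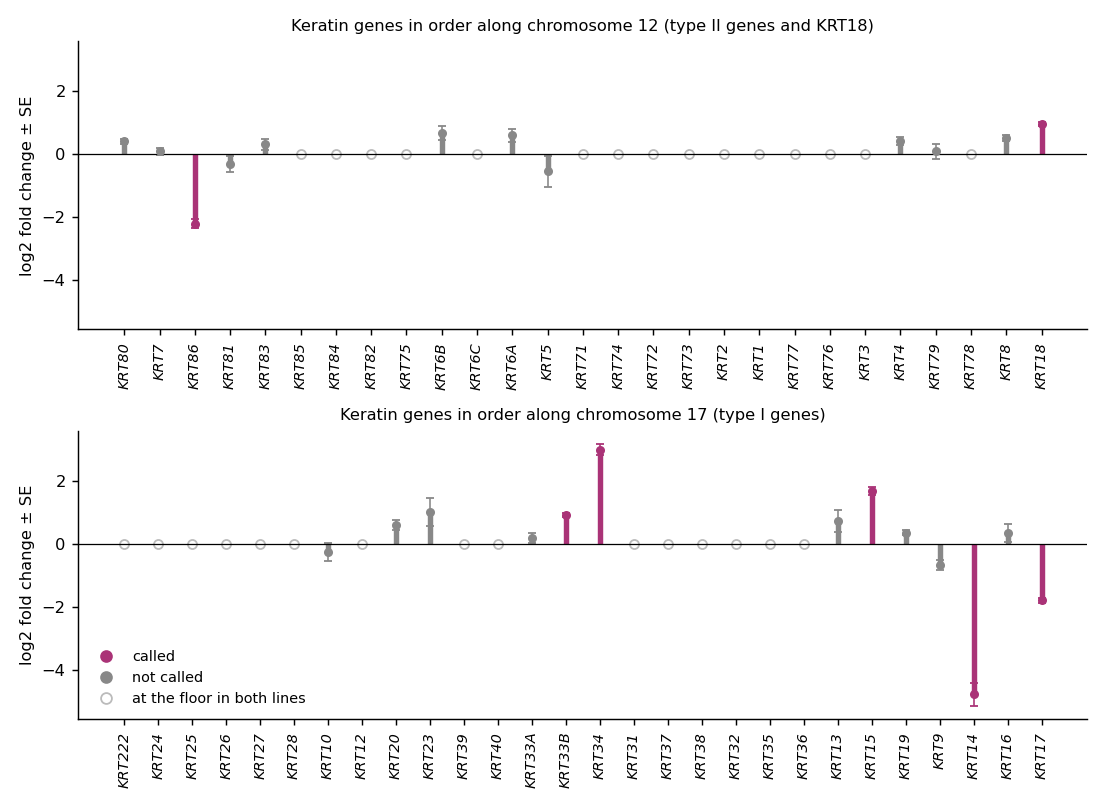
Log2 fold change, HuCCT1/CD90+ minus HuCCT1/CD90-, of the keratins in gene order along the chromosome 12 and chromosome 17 clusters, as bars from 0 with the SE, and open circles at 0 for genes with at most 3 reads in every library. On chromosome 17, KRT15 lies above 0 and KRT14 and KRT17 below 0 in the same stretch of the cluster.

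Among 14 genes that anchor keratin filaments, 6 were higher and 0 lower in HuCCT1/CD90+. They are plakins, plaque proteins of desmosomes, hemidesmosome genes and keratin-binding regulators. Their median log2 fold change was 0.70, beside 0 for all genes. PKP3, a plakophilin of the desmosome plaque, had 26.3, 27.6 and 25.2 RPM in HuCCT1/CD90- and 168, 168 and 152 RPM in HuCCT1/CD90+. This was the largest rise of the list by log2 fold change, 2.58 (SE 0.06, limma adjusted p = 0.00027), from 26.4 ± 1.19 to 163 ± 9.10 RPM (SD, n = 3). DSP, desmoplakin, which ties keratin filaments to the plaque, was called higher, as were the plakin PPL, the keratin-binding FAM83H and the plakophilins PKP1 and PKP2. The DSP means were 93.1 ± 3.32 and 213 ± 11.6 RPM (log2 fold change 1.19, limma adjusted p = 0.0008). PKP1 rested on few reads, with a ratio of 12.2 (95% counting interval 3.84 to 62.4), and was lost with the block (limma adjusted p = 0.041, 0.14 with the block). CSNK1A1, a kinase that FAM83H brings to keratin filaments, passed the adjusted p under the minimum fold (limma adjusted p = 0.033, 0.060 with the block). The 6 higher genes are 42.9% of these, against 7.59% of all genes called higher, and 7.49% of all genes were called lower. All 14 had more than 3 reads in a library, while the shares of all genes include those with few or no reads. Of genes averaging 1 RPM or more, 33.3% were called, higher or lower. Beside the 0 lower genes, the most negative log2 fold change was -0.74 for ITGB4 of the hemidesmosome (limma adjusted p = 0.57). ITGA6, also of the hemidesmosome, had a log2 fold change of -0.41, and its lines did not overlap. It was not called (limma adjusted p = 0.17, 0.043 with the block, DESeq2 adjusted p = 0.040, edgeR adjusted p = 0.034). PLEC, TCHP and DST had log2 fold changes of -0.33, -0.11 and -0.04, and the rest of the list was positive. At an unadjusted limma p of at most 0.05 there were 9 genes of this list (31.1% of all genes), and DESeq2 called 8 (24.9% of the genes it tested) and edgeR 7 (34.8% of the genes it tested).

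Of 12 transcription factors known to act on keratin genes, 6 were higher and 2 lower in HuCCT1/CD90+, with a median log2 fold change of 0.44, beside 0 for all genes. The called shares were 50% higher and 16.7% lower, against 7.59% and 7.49% of all genes. These shares of all genes include those with few or no reads, and of genes averaging 1 RPM or more 33.3% were called, higher or lower. GRHL2, a grainyhead factor of epithelial identity, had 11.3, 8.67 and 9.89 RPM in HuCCT1/CD90- and 161, 192 and 196 RPM in HuCCT1/CD90+. It rose 18.4-fold, the most of this list by log2 fold change (4.07, SE 0.13, limma adjusted p = 0.00043). GRHL1 and GRHL3, of the same family, and the epithelial factors KLF4, KLF5 and ELF3 were higher too. TP63, the master factor of basal cells, which acts on KRT5 and KRT14, had 3.98, 6.63 and 7.28 RPM in HuCCT1/CD90- and 0.429, 0.349 and 0.434 RPM in HuCCT1/CD90+. Its mean RPM was 14.8-fold lower, and its log2 fold change of -2.28 (SE 0.22, limma adjusted p = 0.0053) was the largest fall of the list, and every HuCCT1/CD90+ value was below every HuCCT1/CD90- value. TFAP2A, an activator of epidermal genes, fell from 150 ± 11.3 to 55.1 ± 2.58 RPM (log2 fold change -1.43, limma adjusted p = 0.0010). TP63 and TFAP2A fell in the line where KRT14 and KRT17 fell, while KRT5 was not called and the basal keratin KRT15 rose. Whether the factors have a part in the level of any of these keratins was not tested. KLF4 and KLF5 were lost with the block (limma adjusted p = 0.056 and 0.11), and the higher count was 3 without HuCCT1/CD90+ replicate 3.

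**Figure D5:**
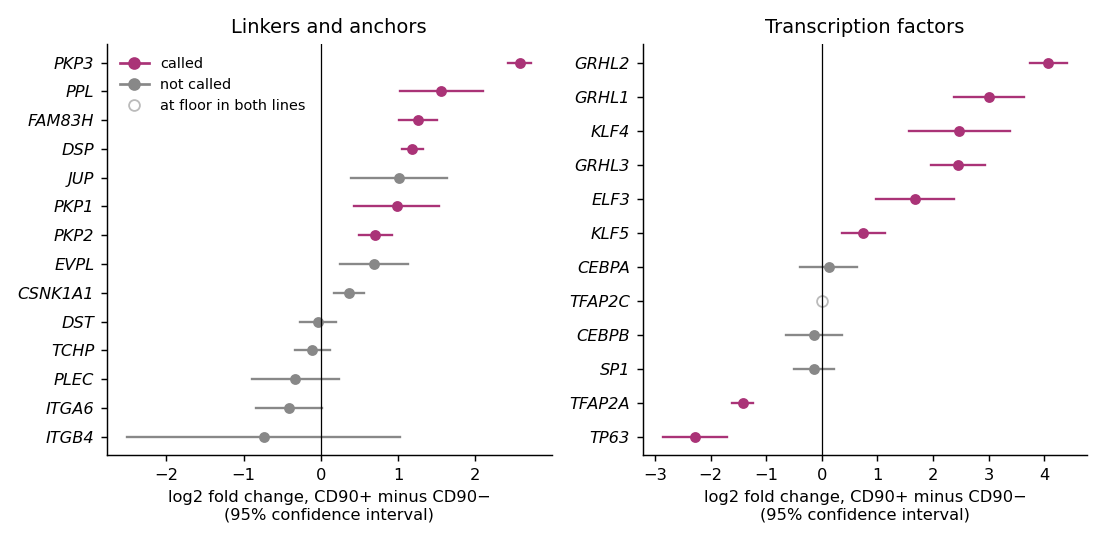
Log2 fold change, HuCCT1/CD90+ minus HuCCT1/CD90-, with 95% confidence intervals from limma, of the genes that anchor keratin filaments and of the transcription factors known to act on keratin genes, with an open circle where no library had more than 3 reads. Of the 14 anchor genes 6 were called higher and 0 lower, and of the 12 factors 6 were called higher and 2 lower.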

How the data were processed

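RNA of 6 libraries was analysed, 3 of each line, grouped by their labels. The authors counted amplicon reads per gene in Torrent Suite (ampliSeqRNA plugin) and deposited them as RPM, that is, scaled to the library total. The submitters' processing notes name hg19 and Transcriptome Analysis Console. Whether strand was used in counting is not given in the sources used here. The table holds no coordinates, so gene positions come from GENCODE release 29 on GRCh38 and promoters from RefSeq on GRCh38.p14. RPM steps gave whole reads for 100% of values within 0.01 read, and these were used for read counts, exact counting intervals, edgeR 4.0.16 and DESeq2 1.42.0. Intervals and floors cover counting error only.

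The main test was limma 3.58.1 (lmFit and eBayes, R 4.3.3) on log2(RPM + 1) over 20811 genes with all 6 libraries, with Benjamini-Hochberg adjustment. A call needed a change of 1.5-fold or more and an adjusted p up to 0.05. A fold change on this scale understates that of low genes, so ratios of mean RPM are given for the main genes. The scripts were tested on simulated data. No library repeated another: between libraries of 1 line, chi-square per degree of freedom over genes was at least 9.66. The deviations of same-numbered libraries from their line means correlated at r = 0.178 to 0.320, and the 6 other pairs at -0.294 to 0.0706 (across genes, which are not independent replicates). Deviations within a line cancel for each gene, so positive same-numbered pairs tend to make the other pairs negative. The contrast between them is therefore not independent evidence of pairing. The numbers were taken to pair the libraries from this alone, and a fit with the replicate block was an alternative. The others were offsets of 0.1 and 5 RPM, means of at least 1 or 10 RPM, quantile normalization, median centring, eBayes with trend and robust settings, each library left out, edgeR, DESeq2, a fold of 2 and the study's thresholds. The keratins, role groups and lists were chosen with earlier results of these data known. Full values are given for keratins called with a mean of at least 1 RPM and for KRT7, KRT8, KRT18, KRT19, KRT20 and KRT23, and for the called anchor genes and factors of largest rise and fall. The others named in the text, KRT33B and KRT80 among them, had more than 3 reads in a library or share a role or gene row with these. EPPK1 and 1 further transcription factor were not analysed here.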

Additional observations from a re-analysis of the deposited data

How the results depend on the processing

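All 7 keratin calls were kept with each library left out, with quantile normalization, median centring, eBayes with trend and robust settings and the replicate block, and no direction was reversed in any setting. With the block, 7 keratins were called (12.7%, against 10.1% of all genes), and 5 anchor genes and 4 factors were higher. The markers COL1A2 and DCN were lost, and ITGA6 passed the adjusted p under the minimum fold. Beyond these and KRT8, KRT19, KRT80, KRT4, KRT83, PKP1, CSNK1A1, KLF4 and KLF5, no gene with values in the text changed its side of an adjusted p of 0.05. KRT33B was lost with an offset of 5 RPM, with genes of at least 1 or 10 RPM on average, with edgeR and with a fold of 2, KRT34 with at least 10 RPM and KRT18 with a fold of 2. The number of keratins called higher was 2 with genes of at least 10 RPM and with a fold of 2, 7 with the study's thresholds and 4 to 6 with 1 library left out; the lower count stayed at 3 then. Simple epithelial calls were 2 with an offset of 0.1 RPM, genes of at least 1 RPM, edgeR, DESeq2 and the study's thresholds, 0 with a fold of 2, and 1 to 2 with a library left out. Type II calls were 2 with the 0.1 RPM offset and DESeq2, 3 with the study's thresholds and 1 to 2 with a library left out. Stress and regeneration calls were 2 with the 0.1 RPM offset and DESeq2 and 3 with the study's thresholds. Stratified and cornified calls were 1 with genes of at least 1 RPM, median centring and the study's thresholds, and 0 to 1 with a library left out. Hair shaft calls were 2 with a fold of 2 and 1 with genes of at least 10 RPM, where KRT33B and KRT34 were not tested. With that filter the factors gave 3 higher and 1 lower call, and 3 to 6 were higher and 2 lower with a library left out. Anchor genes called higher were 4 to 7 with a library left out. The difference in summed keratin RPM was 2277, 1360 without KRT19 and 2017 to 2669 with a library left out. Except where fewer genes or libraries entered, the cause of these shifts was not tested. Over all genes, 3138 were called (15.1%, against 12.7% of keratins), 2102 with the block (10.1%, against 12.7%) and 4236 by DESeq2 (24.9% of genes tested, against 22.5% of keratins tested). With a library left out, 1868 to 2414 were called (8.98% to 11.6%, against 12.7% to 16.4% of keratins). The keratin share was thus below that of all genes in the main fit and above it with the block or a library left out. Over genes of at least 1 RPM on average, the median log2 fold change was -0.00858 as deposited, -0.0122 with quantile normalization and -0.0349 with median centring. KRT34, KRT33B and other keratins of few reads are limited by depth, and genes at 0 reads allow up to 0.349 RPM.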

Other observations

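The table holds 93 other genes whose symbols begin with KRT, the keratin-associated proteins of the hair matrix, KRTCAP and KRTDAP genes and pseudogenes, of which 85 had at most 3 reads in every library. The 4 that were called (4.3%, against 15.1% of all genes) are named here after their values were seen. KRTCAP3, a membrane protein gene named for keratinocytes, had a mean of 2.99 ± 0.377 RPM in HuCCT1/CD90- (SD, n = 3) and was 22.8-fold higher in HuCCT1/CD90+, at 68.2 ± 1.18 RPM, with a log2 fold change of 4.12 and a limma adjusted p of 0.00022. KRTCAP2, a subunit of the complex that adds N-linked glycans to proteins, was lower, at 166 ± 20 and 106 ± 8.86 RPM (log2 fold change -0.64, limma adjusted p = 0.026). KRTAP2-3, a hair matrix protein gene, had 3, 11 and 5 reads in HuCCT1/CD90- and 63, 54 and 63 reads in HuCCT1/CD90+, with means of 0.649 ± 0.468 and 6.63 ± 0.296 RPM (10.2-fold higher, log2 fold change 2.25, limma adjusted p = 0.0055). KRTAP5-1 had 0, 0 and 1 reads in HuCCT1/CD90- and 7, 8 and 7 reads in HuCCT1/CD90+, a ratio of 24.5 with a 95% counting interval of 3.96 to 1011 (limma adjusted p = 0.0028). KRTAP2-3 and KRTAP5-1 are genes of hair-forming cells, as are the keratins KRT34 and KRT33B, which were higher in HuCCT1/CD90+, and KRT86, which was lower. KRTAP genes are close copies of each other, so their values are uncertain.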
